A study of Homo sapiens with 12 samples.

Results

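The replication-dependent histone genes are the clustered gene copies that supply the core histones H2A, H2B, H3 and H4 and the linker histone H1 while DNA is copied. Every protein-coding row of the gene count tables was kept whose symbol was H1-1 to H1-5 or carried the family stem H2AC, H2BC, H3C or H4C followed by a number, with the older HIST symbols accepted. This gave 68 genes of the 60668 in the tables, made up of 5 H1, 17 H2A, 18 H2B, 13 H3 and 15 H4 genes. Of these, 66 were matched by their current symbol and 2, H2AC18 and H2AC19, by an older one. The annotation placed 54 on chromosome 6, 13 on chromosome 1 and 1, H4C16, on chromosome 12.

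The RNA came from MOLM-13, an established human acute monocytic leukemia line that carries a KMT2A (MLL1) fusion and an internal tandem duplication of the FLT3 receptor kinase gene. Cultures were exposed for 8 days to gilteritinib plus MI3454, to gilteritinib, to MI3454 or to the DMSO vehicle, with 3 libraries in each group and 12 in all. Gilteritinib inhibits the FLT3 kinase, and MI3454 blocks the binding of menin to MLL1. The cultures were seeded in triplicate from 1 line, so all p-values measure the spread between parallel cultures, and the drug concentrations were not given in the labels.

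Cells make most of these mRNAs in S phase, and the transcripts carry no introns and usually end in a short stem-loop in place of a poly(A) tail. The stem-loop-binding protein SLBP holds that hairpin during processing, export and translation, and the mRNAs are degraded when DNA synthesis stops. H2A, H2B, H3 and H4 form the nucleosome core, and H1 binds the DNA that enters and leaves it. The libraries were made from total RNA depleted of ribosomal RNA, so a poly(A) tail was not needed for a transcript to be counted.

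A stem-loop was searched for in the 150 bases after the stop codon, allowing up to 3 mismatches to the 16-base consensus in the shortest annotated transcript of GENCODE release 29 (GRCh38). It was found in 29 of the 33 genes whose annotated transcript ran at least 40 bases past the stop codon. The sites below are shown because they are the shared feature that sets these transcripts apart and because the H4 genes and several others carry variants of it. Each is given 5′ to 3′ on the strand of the gene with up to 5 bases on either side, and the capitals mark the 16-base hairpin.
H2AC8: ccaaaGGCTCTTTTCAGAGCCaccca
H2AC11: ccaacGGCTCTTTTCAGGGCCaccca
H2BC4: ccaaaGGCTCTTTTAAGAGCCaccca
H3C10: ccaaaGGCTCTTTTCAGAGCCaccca
H3C6: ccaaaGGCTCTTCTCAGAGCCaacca
H4C5: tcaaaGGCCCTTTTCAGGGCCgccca
H4C9: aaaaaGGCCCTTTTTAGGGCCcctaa
The hairpin of H2AC8 and H3C10 was the most frequent, in 15 genes of the H2A, H2B and H3 families, and that of H4C5 was found in 5 genes, all H4. That of H2BC4 was found in 4 genes, that of H4C9 in 3, and those of H2AC11 and H3C6 in 1 gene each. No match was read in H1-4, H2AC6, H2BC18 or H4C3, which says only that these letters were not in that window of that transcript.

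The promoters were compared because the genes lie in shared clusters and many are paired head to head. RefSeq held a promoter window of 250 bases before to 50 after the start for 63 of the 68 genes (GRCh38.p14). Both strands were searched for 5 short words, none of which contains another. The TATA box word TATAAA was found in 66.7% of the histone windows and in 11.95% of all 27305 windows, and the CAAT box word CCAAT in 84.1% of histone and 35.7% of all windows. CCAAT was present in each of the 50 H1, H2A, H2B and H3 windows but in 3 of 13 H4 windows. The octamer ATTTGCAT, a site of OCT1, was found in 11 of 16 H2A and 14 of 18 H2B windows, against 1.80% of all windows. The H1 box word AAACACA was found in 5 of 5 H1 windows, against 5.76% of all windows. GGTCC, a core of the H4 subtype element, was found in 12 of 13 H4 windows, against 46.1% of all windows. The window of H1-5, on the minus strand at chr6:27867539-27867838, and the shared window of the divergent pair H2AC8 and H2BC8, read on the plus strand of H2AC8 at chr6:26216671-26216970, are printed to show how the words lie, with the capitals marking each match on either strand. A match is a description of the letters and not evidence of binding.
H1-5: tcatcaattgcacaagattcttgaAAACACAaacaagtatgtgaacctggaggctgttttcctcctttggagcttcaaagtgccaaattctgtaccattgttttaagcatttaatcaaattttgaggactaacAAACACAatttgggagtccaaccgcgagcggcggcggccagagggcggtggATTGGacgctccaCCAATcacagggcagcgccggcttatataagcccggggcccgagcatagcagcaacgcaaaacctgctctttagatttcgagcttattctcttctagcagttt
H2AC8: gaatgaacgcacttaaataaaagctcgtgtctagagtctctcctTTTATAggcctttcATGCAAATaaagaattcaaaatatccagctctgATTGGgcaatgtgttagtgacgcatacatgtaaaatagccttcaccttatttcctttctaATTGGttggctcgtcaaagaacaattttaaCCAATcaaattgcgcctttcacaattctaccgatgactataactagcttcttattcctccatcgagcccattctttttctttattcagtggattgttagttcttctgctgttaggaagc

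The 12 libraries held from 6472940 to 12051457 counts on genes. The leukemia line was checked by 8 myeloid and leukemia genes (CD33, FLT3, MEIS1, HOXA9, SPI1, LYZ, MPO and ANPEP), all of which had counts in every group. Their levels were not alike between groups. Log2 changes of these 8 against DMSO ran from -3.71 to 5.03 with the combination, from -0.42 to 1.70 with gilteritinib and from -2.62 to 4.44 with MI3454. The 9 markers of T, B, erythroid, epithelial, fibroblast and liver cells summed to between 1.42 and 8.27 CPM (a depth-scaled count) per library, and HBB was at 0 in all 12. Their sum ran from 1.42 to 1.91 CPM with the combination, from 5.35 to 8.27 CPM with gilteritinib, from 1.75 to 5.22 CPM with MI3454 and from 3.67 to 4.82 CPM in DMSO. CPM here count the reads of a gene relative to all gene counts after scaling by the trimmed mean of M-values (TMM). Within a group, library pairs differed by far more than counting noise, with a chi-square per gene of 2.07 to 27.5. The share of reads assigned to no gene was 22.7% to 30.0% with the combination, 11.1% to 13.0% with gilteritinib, 13.1% to 19.2% with MI3454 and 11.8% to 15.1% in DMSO. The share aligned to more than 1 place, which the counting left out, was 18.0% to 20.4% with the combination, 26.9% to 28.9% with gilteritinib, 21.8% to 24.7% with MI3454 and 25.7% to 28.95% in DMSO. The part of either share in the histone changes was not tested.

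Of the 68 genes, 56 passed the filter on low counts and were tested with edgeR. The 12 below it were H2AC1, H2AC7, H2AC17, H2BC1, H2BC3, H2BC10, H3C3, H3C4, H3C8, H4C6, H4C7 and H4C15. H2AC1, H3C4 and H4C6 had 0 counts in all 12 libraries, which allows up to 3 counts per library, or 0.249 to 0.463 CPM before that scaling by counting error alone. The other 9 had between 1 and 100 counts over the 12 libraries. In GENCODE 29, H3C4 and H2AC7 lie 100% and 98.0% inside exons of AL031777.3 on the same strand, and H2AC17 lies 88.0% inside exons of H3C12 on the same strand. H2AC15 lies wholly inside an exon of H2BC15 on the opposite strand and had 7526 counts over the 12 libraries. What part these overlaps play in the counts was not tested, since no source used here gives the annotation or the strand setting of the counting.

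Several genes are near copies of one another, and their values are uncertain for that reason. Translation of the GENCODE coding sequences gave 34 distinct proteins, and 41 of the 68 genes shared theirs with another member. 14 of the 15 H4 genes encode 1 protein, 10 H3 genes (H3C1, H3C2, H3C3, H3C4, H3C6, H3C7, H3C8, H3C10, H3C11 and H3C12) encode another, and H3C13, H3C14 and H3C15 share yet another. H2AC11, H2AC13, H2AC15, H2AC16 and H2AC17 encode 1 H2A protein, and H2BC4, H2BC6, H2BC7, H2BC8 and H2BC10 encode 1 H2B protein. H2AC4 pairs with H2AC8 and H2AC18 with H2AC19 in the same way. Coding sequences were identical between H2AC18 and H2AC19, H3C14 and H3C15, H4C14 and H4C15, and H4C11 and H4C12. In 17 genes over 50% of all 75-base stretches also occurred in an annotated transcript of another gene, read on either strand. In H2AC15, H2AC18, H3C4, H3C14, H3C15, H4C12, H4C14 and H4C15 the share was 100%. The measure includes genes annotated over the same bases, as in the overlaps of H3C4, H2AC7, H2AC15 and H2AC17 given above. H3C4 and H2AC7 shared no stretch with another member. Of the tested copies with identical coding sequences, H2AC18, H2AC19, H3C14, H3C15 and H4C14 each stayed under 4 CPM in every library.

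Genes were ranked by their level per kilobase of coding length. On that scale the mean over the 12 libraries was highest for H3C2, at 1329 CPM per kilobase, followed by H1-5 at 1285, H2BC12 at 1120.5, H2AC11 at 1098 and H3C10 at 1045 CPM per kilobase. In DMSO these genes had means of 1255 ± 344, 1238 ± 258, 1091 ± 327, 1129 ± 278 and 1140.5 ± 362 CPM per kilobase (SD, n = 3), so neighbours in this order did not differ beyond their spread. Per kilobase of annotated exon H2AC11 stood at 191.7 and H3C10 at 347 CPM, so the order depends on the length used. Without scaling for length, the CPM were spread unevenly within types. H1-5, H1-2 and H1-4 held 94.8% of the H1 level, and the 3 highest genes held 68.02% of the H3 level, 49.0% of the H4 level, 42.3% of the H2A level and 34.2% of the H2B level.

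With the combination, most replication-dependent histone genes stood lower than in DMSO. Of the 56 tested genes 47 were lower and 0 were higher at an edgeR adjusted p under 0.05 (quasi-likelihood test, Benjamini-Hochberg adjustment over all genes), while 28.4% of all 13972 genes tested were lower and 29.2% were higher. At an unadjusted p under 0.05, 50 were lower and 0 higher, and DESeq2 called 40 lower. For unadjusted and DESeq2 counts no share over all genes is given, here or below, so they are not set against a background. All 56 had a negative log2 change, with a median of -0.86, beside a median of -0.0007 over all genes. The summed level of the 68 genes was 7736, 6066 and 5725 CPM with the combination and 11644, 14066 and 7552 CPM in DMSO. The group means were 6509 ± 1076 CPM with the combination and 11087 ± 3292 CPM in DMSO (SD, n = 3 each), a ratio of 0.587, and the highest combination library lay just above the lowest DMSO library. Of the 56 genes, 29 had all 3 combination libraries below all 3 DMSO libraries. No share over all genes is given for such counts, here or below, so they are not set against a background. In bulk RNA, fewer cells in S phase and less histone mRNA per cell cannot be told apart.

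**Figure D1:**
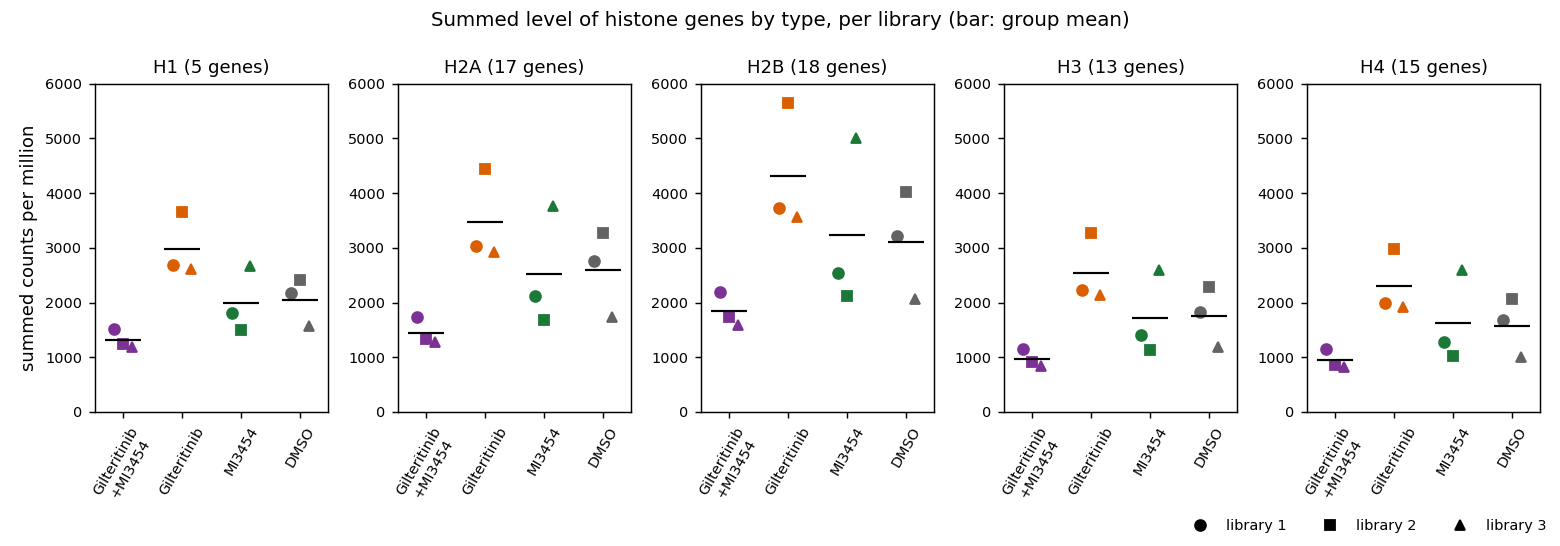
Each point is the summed CPM of the histone genes of 1 type in 1 library, with the groups along the horizontal axis, marker shapes for libraries 1 to 3 and bars for group means. The combination means lie below the DMSO means in all 5 types by CPM, a direction that turned round for the histone sum scaled to RN7SL1, and gilteritinib library 2, MI3454 library 3 and DMSO library 2 are the highest of their groups.

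That direction held for CPM and not for every scaling. RN7SL1, which is the RNA part of the signal recognition particle and likewise has no poly(A) tail, took 1.66, 1.17 and 1.34% of gene counts with the combination, 2.22, 2.88 and 2.41% with gilteritinib, 2.34, 2.02 and 4.56% with MI3454 and 2.88, 4.27 and 2.31% in DMSO. Its log2 change with the combination against DMSO was -1.30 ± 0.21 (SE, edgeR adjusted p = 5.14e-05), and that of the spliceosomal RNA RNU4-2 was -1.35 ± 0.25 (SE, edgeR adjusted p = 2.07e-04). In each group the library with the highest RN7SL1 share, which was combination 1, gilteritinib 2, MI3454 3 and DMSO 2, also had the highest histone share. Histone counts per RN7SL1 count were 0.477, 0.556 and 0.464 with the combination, 0.612, 0.632 and 0.543 with gilteritinib, 0.391, 0.382 and 0.338 with MI3454 and 0.399, 0.311 and 0.335 in DMSO. All combination libraries lay above all DMSO libraries on that scale, so that the combination to DMSO ratio was 1.43, against 0.587 by CPM. This scaling was chosen after the data were seen. Of 13 short RNAs without a poly(A) tail, 2 passed the filter and 7, among them RN7SK, RMRP and RPPH1, had 0 counts in all 12 libraries. The part of this co-movement in the histone changes was not tested. Without the library highest in RN7SL1 in each group, 47 of the 56 genes were again lower with the combination than in DMSO. The libraries kept still differed in RN7SL1, at 1.17 and 1.34% with the combination and 2.88 and 2.31% in DMSO. That fit therefore cannot separate the histone change from the co-movement.

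**Figure D2:**
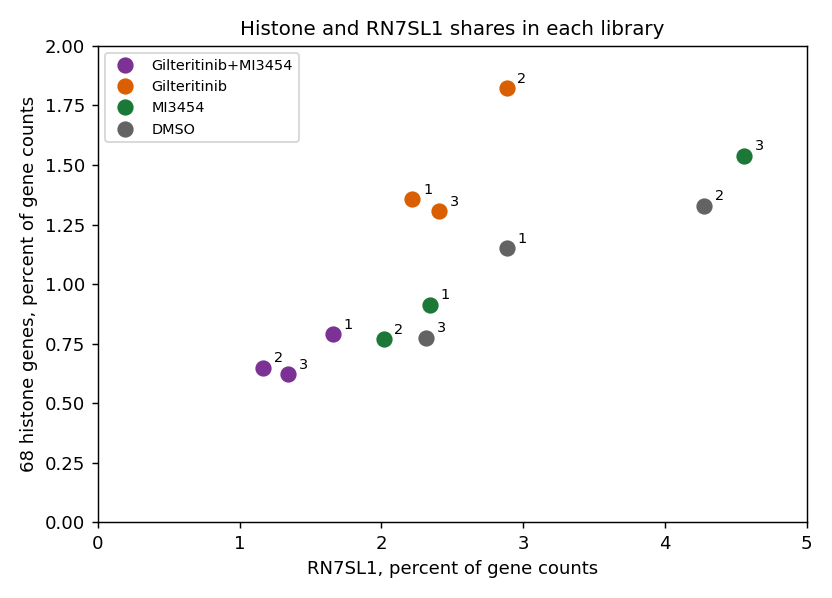
The share of gene counts in histone genes against the share in RN7SL1, in percent, with 1 point per library, colored by group. The combination libraries are low on both axes. By histone counts per RN7SL1 count they lie above the DMSO libraries. On that scale they lie below the gilteritinib libraries except where combination library 2, at 0.556, passes gilteritinib library 3, at 0.543.

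**Figure D3:**
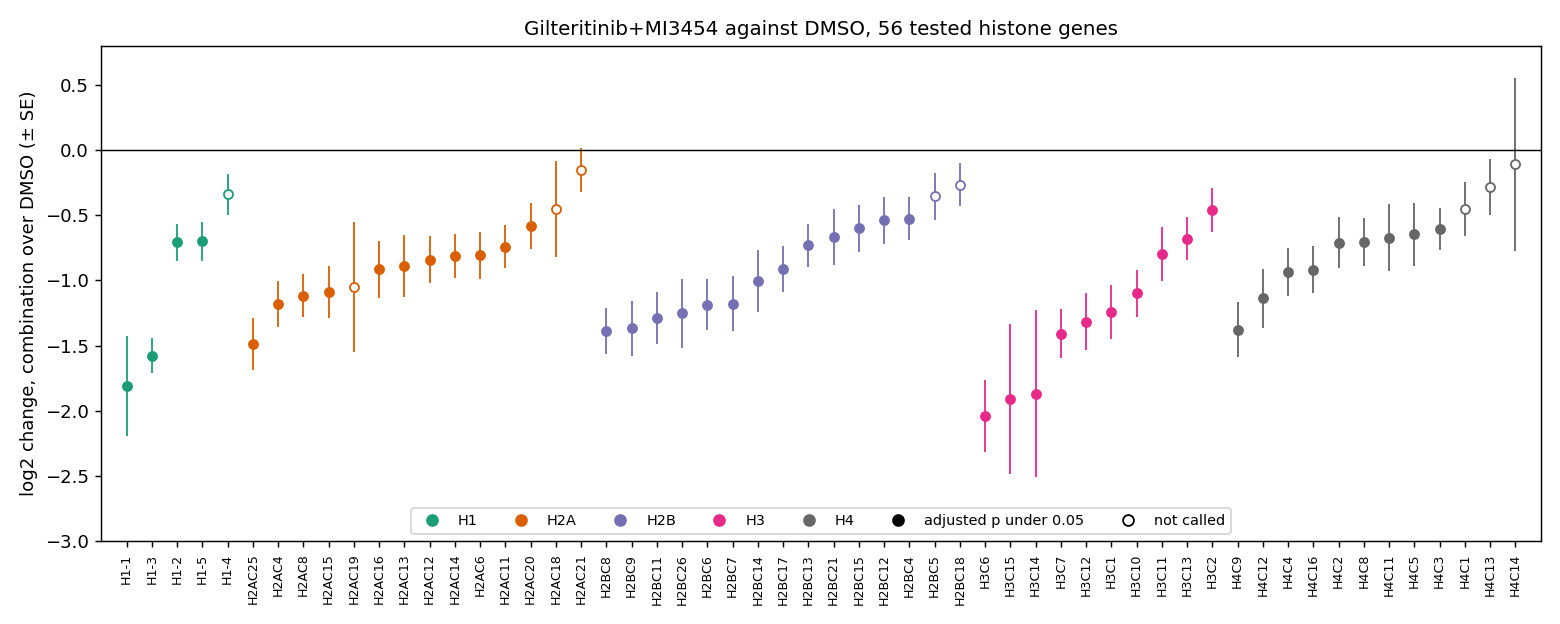
The log2 change of each of the 56 tested histone genes, combination over DMSO, grouped by histone type, with error bars of 1 standard error and filled symbols where the edgeR adjusted p was under 0.05. All 56 points lie below 0 by CPM, from -2.04 in H3C6 to -0.11 in H4C14, a direction that turned round for the histone sum scaled to RN7SL1.

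Among the linker histones, which bind between nucleosomes, 4 of 5 genes were lower with the combination than in DMSO, with a median log2 change of -0.71 over the type. H1-5, at chr6:27866849-27867529 on the minus strand of GRCh38 and with the promoter printed above, was the most abundant. It had 609.8, 482 and 464 CPM with the combination, 1187, 1532 and 1150.3 CPM with gilteritinib, 779, 644 and 1127 CPM with MI3454, and 898, 985 and 647 CPM in DMSO. All 3 combination libraries lay below all DMSO libraries, and all gilteritinib libraries lay above them. Its log2 change against DMSO was -0.70 ± 0.15 (SE, edgeR adjusted p = 7.22e-04) with the combination and 0.61 ± 0.16 (SE, edgeR adjusted p = 0.0248) with gilteritinib. The gilteritinib call was lost without DMSO library 1, at 0.66, DMSO library 3, at 0.45, or gilteritinib library 2, at 0.47.

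H1-2, a linker subtype that most cell types express, had 410.3, 347 and 338 CPM with the combination, 775, 999 and 762 CPM with gilteritinib, 504, 425 and 707 CPM with MI3454, and 659, 677 and 455 CPM in DMSO. All combination libraries lay below all DMSO libraries. The log2 change with the combination was -0.71 ± 0.14 (SE, edgeR adjusted p = 4.31e-04). H1-4 had 438, 370.4 and 349 CPM with the combination, 566, 949 and 550.4 CPM with gilteritinib, 417, 345 and 721 CPM with MI3454, and 482, 625 and 357 CPM in DMSO, and its log2 change of -0.34 ± 0.16 (SE, edgeR adjusted p = 0.0785) was not past the threshold. It was past it without DMSO library 3, at -0.52, or without combination library 1, at -0.44, and stood at -0.13 without DMSO library 2. Its combination and DMSO libraries overlapped. H1-3 had 48.4, 36.3 and 38.5 CPM with the combination and 136, 130.3 and 102 CPM in DMSO, a log2 change of -1.58 ± 0.14 (SE, edgeR adjusted p = 4.46e-08) with no overlap of the groups.

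H1-1 was low everywhere and had 1.04, 0.741 and 0.284 CPM with the combination, 5.35, 5.11 and 6.28 CPM with gilteritinib, 1.45, 1.13 and 1.63 CPM with MI3454, and 2.46, 3.13 and 2.27 CPM in DMSO. No 2 of the 4 groups overlapped, with gilteritinib highest and the combination lowest. The log2 change was -1.81 ± 0.38 (SE, edgeR adjusted p = 0.00074) with the combination and 1.08 ± 0.21 (SE, edgeR adjusted p = 0.00532) with gilteritinib, both against DMSO, on 2 to 64 counts per library in these 3 groups.

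The makeup of the H1 transcripts shifted with the combination, a comparison within a type that does not depend on how libraries are scaled. H1-3 made up 3.21, 2.94 and 3.24% of the H1 level with the combination, 5.84, 4.42 and 5.74% with gilteritinib, 5.67, 5.66 and 4.31% with MI3454 and 6.26, 5.38 and 6.53% in DMSO. The 3 combination libraries lay below the 3 DMSO libraries. H1-4 made up 29.05, 29.96 and 29.3% with the combination, 21.02, 26.02 and 21.01% with gilteritinib, 23.1, 23.00 and 27.00% with MI3454 and 22.1, 25.8 and 22.9% in DMSO, with all combination libraries above all DMSO libraries. For such groups of 3, an exact two-sided permutation test cannot go below a p of 0.1, so no p is given for these shares.

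**Figure D4:**
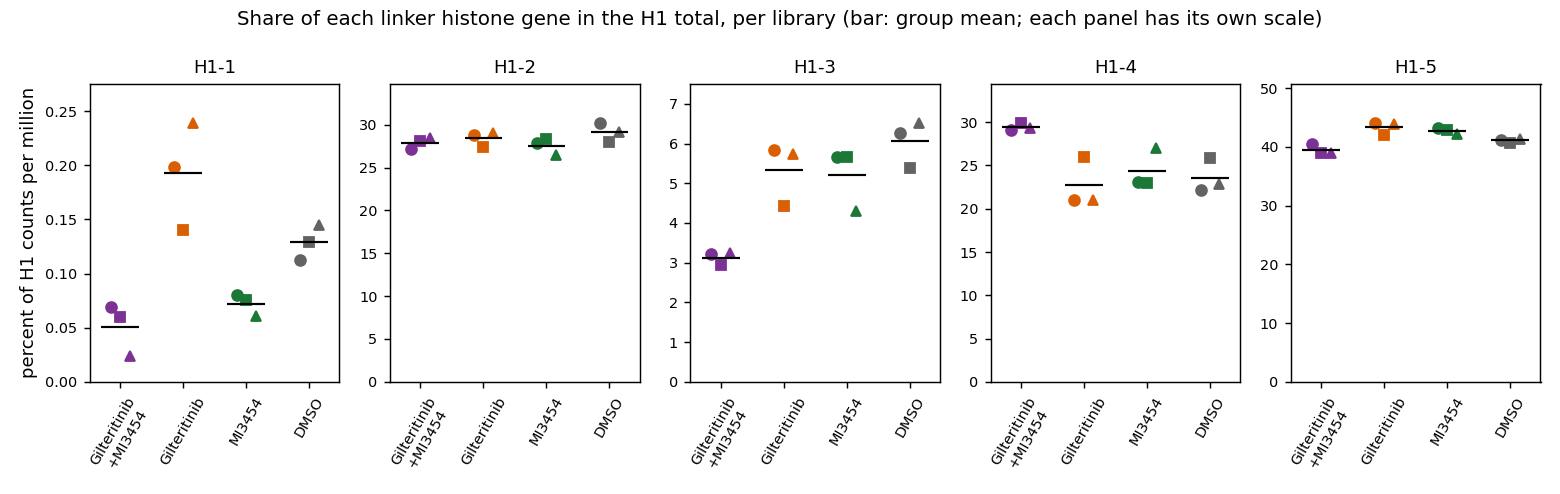
The share of each linker histone gene in the summed H1 CPM of each library, in percent, with groups along the horizontal axis and bars for group means. H1-3 is lower and H1-4 higher with the combination than in DMSO, without overlap of the libraries.

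Of the H2A genes 11 of 14 were lower with the combination than in DMSO, with a median log2 change of -0.86. H2AC11, at chr6:27133042-27135291, had the highest level of the type, at 321, 246 and 229 CPM with the combination, 556, 707 and 526 CPM with gilteritinib, 368, 276 and 618 CPM with MI3454, and 469.6, 538 and 323 CPM in DMSO. Combination and DMSO libraries did not overlap, and the log2 change was -0.74 ± 0.16 (SE, edgeR adjusted p = 9.97e-04). H2AC8, at chr6:26216975-26217483 and next to the promoter printed above, had 196, 151 and 148 CPM with the combination, 376, 589 and 385 CPM with gilteritinib, 294, 226 and 503 CPM with MI3454, and 373, 443 and 259 CPM in DMSO. Here the combination and DMSO libraries did not overlap, and the log2 change was -1.12 ± 0.16 (SE, edgeR adjusted p = 2.1e-05). The H2A genes not past the threshold were H2AC18, H2AC19 and H2AC21, and H2AC21 had 82.8, 61.8 and 63.5 CPM with the combination, 106, 129 and 108 CPM with gilteritinib, and 81.6, 95.9 and 54.3 CPM in DMSO, with a log2 change of -0.15 ± 0.17 (SE, edgeR adjusted p = 0.445) against DMSO. It was -0.35 and called without DMSO library 3, and 0.027 and not called without DMSO library 2.

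Of the H2B genes 13 of 15 were lower with the combination than in DMSO, with a median log2 change of -0.91. H2BC12, at chr6:27146418-27146798, had 351, 272 and 235 CPM with the combination, 504, 762 and 479 CPM with gilteritinib, 327, 279 and 667 CPM with MI3454, and 399, 548 and 300.2 CPM in DMSO. Its combination and DMSO libraries overlapped, and the log2 change was -0.54 ± 0.18 (SE, edgeR adjusted p = 0.0166). H2BC4 had 267, 219 and 209.7 CPM with the combination, 394, 491 and 378 CPM with gilteritinib, 292, 255 and 512 CPM with MI3454, and 360.4, 409 and 232 CPM in DMSO, and its log2 change was -0.53 ± 0.16 (SE, edgeR adjusted p = 0.0113), with libraries of both groups that overlapped. H2BC12 was no longer past the threshold without DMSO library 2, at -0.29, or without combination library 3, at -0.42. H2BC4 was not without DMSO library 1, at -0.48, or without combination library 3, at -0.46. H2BC5 and H2BC18 were not past it with all libraries.

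The H3 genes had the lowest median log2 change of the 5 types, -1.28, and all 10 tested were lower. The difference between types was not tested, and the median counts low and abundant genes alike. The summed H3 level averaged 965 CPM with the combination and 1763 CPM in DMSO. Beside it stood 1448 and 2592 CPM for H2A, 1838 and 3100 CPM for H2B, and 947 and 1579 CPM for H4. H3C2, at chr6:26031589-26032099, had 444, 358 and 324 CPM with the combination, 699.8, 896 and 666 CPM with gilteritinib, 461, 366 and 790.4 CPM with MI3454, and 537, 645 and 365 CPM in DMSO. Its combination and DMSO libraries overlapped, and the log2 change was -0.46 ± 0.17 (SE, edgeR adjusted p = 0.0272). H3C2 was no longer past the threshold without DMSO library 1, at -0.44, DMSO library 2, at -0.27, combination library 2, at -0.43, or combination library 3, at -0.36. H3C10 had 258, 205 and 193 CPM with the combination, 548, 768 and 539 CPM with gilteritinib, 338, 283 and 617 CPM with MI3454, and 461, 621 and 324 CPM in DMSO and a log2 change of -1.10 ± 0.18 (SE, edgeR adjusted p = 6.45e-05), with libraries of both groups that did not overlap. H3C6, which has the variant hairpin shown above, had 1.91, 1.06 and 0.995 CPM with the combination, 5.60, 7.54 and 5.07 CPM with gilteritinib, 2.34, 3.29 and 2.39 CPM with MI3454, and 6.003, 5.69 and 5.40 CPM in DMSO. It had the most negative change of all 56 genes, -2.04 ± 0.28 (SE, edgeR adjusted p = 1.01e-05), and its combination and DMSO libraries did not overlap. The copies H3C14 and H3C15 followed with log2 changes of -1.87 ± 0.64 (SE, edgeR adjusted p = 0.0193) and -1.91 ± 0.58 (SE, edgeR adjusted p = 0.00963), but each had at most 1.58 CPM in any library, their coding sequences are identical, and H3C14 was at 0 in combination library 3. H3C14 was not called without combination library 1, at -1.61, or combination library 3, at -1.46, and stood at -3.001 without combination library 2. H3C15 was not called without combination library 1, at -1.44.

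Of the H4 genes 9 of 12 were lower with the combination than in DMSO, with a median log2 change of -0.69. H4C5, at chr6:26204552-26206038, had 195, 143 and 125 CPM with the combination, 310.1, 809 and 327 CPM with gilteritinib, 196, 149.9 and 461 CPM with MI3454, and 227, 366 and 134 CPM in DMSO. Its combination and DMSO libraries overlapped, and the log2 change was -0.65 ± 0.24 (SE, edgeR adjusted p = 0.0318). H4C5 was no longer past the threshold without DMSO library 1, at -0.70, DMSO library 2, at -0.23, combination library 2, at -0.59, or combination library 3, at -0.52. H4C3 had 201, 161 and 159 CPM with the combination, 318, 412 and 307 CPM with gilteritinib, 257, 187 and 429 CPM with MI3454, and 283, 322 and 186 CPM in DMSO, with combination and DMSO libraries that overlapped and a log2 change of -0.60 ± 0.16 (SE, edgeR adjusted p = 0.00426). H4C1, H4C13 and H4C14 were not past the threshold.

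Position, near copies, hairpins and promoter words were set beside these changes as descriptions. On chromosome 6, 39 of 43 tested genes were lower with the combination than in DMSO, with a median log2 change of -0.89. On chromosome 1, 7 of 12 were lower, with a median of -0.67. Genes with the hairpin of H2AC8 had 13 of 15 lower and a median of -1.12. Those with the hairpin of H4C5 had 5 of 5 lower and a median of -0.71. Among H2A and H2B genes with the ATTTGCAT word 17 of 19 were lower, with a median of -0.91, and among those without it 6 of 9, with a median of -0.89. Genes with over 50% of their 75-base stretches in transcripts of another gene, overlapping genes included, had 9 of 13 lower and a median of -0.81. The other genes had 38 of 43 lower and a median of -0.91. There were 11 head-to-head H2A and H2B pairs with starts 194 to 248 bases apart, and in 8 both genes were tested. Both partners had negative log2 changes with the combination in all 8, such as -1.12 in H2AC8 and -1.39 in H2BC8, and -1.49 in H2AC25 and -1.25 in H2BC26. No difference between these subsets was tested, and they share genes.

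By CPM the combination was lower against each drug alone as well, but against MI3454 this turned round for the histone sum scaled to RN7SL1. Histone counts per RN7SL1 count averaged 0.499 with the combination and 0.370 with MI3454, with all combination libraries above all MI3454 libraries, and 0.499 with the combination and 0.596 with gilteritinib, with libraries that overlapped. Against gilteritinib, 54 of 56 genes were lower with the combination, with a median log2 change of -1.32, beside 30.3% of all genes lower and a median of 0.0034 over all genes. In 54 genes all combination libraries lay below all gilteritinib libraries, a count given without a share over all genes. The most negative changes were -2.88 ± 0.31 (SE, edgeR adjusted p = 2.84e-06) in H1-1, -2.18 ± 0.60 (SE, edgeR adjusted p = 0.00639) in H3C15 and -2.11 ± 0.28 (SE, edgeR adjusted p = 2.25e-05) in H3C6. H3C15 had only 1, 3 and 2 counts with the combination and 13, 12 and 5 with gilteritinib. It passed the filter on low counts through gilteritinib libraries 1 and 2 and MI3454 library 3, where it was highest. All its 75-base stretches also occurred in another gene, so its value is uncertain. This comparison and the one with DMSO share the combination libraries.

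Against MI3454, 31 of 56 genes were lower with the combination by CPM, with a median log2 change of -0.84, beside 15.1% of all genes lower and a median of -0.006 over all genes. The median was -0.42 without MI3454 library 3. In 25 genes the libraries did not overlap, a count given without a share over all genes. The largest called changes were -1.62 ± 0.42 (SE, edgeR adjusted p = 0.0128) in H2BC26, -1.43 ± 0.24 (SE, edgeR adjusted p = 0.00121) in its head-to-head partner H2AC25 and -1.40 ± 0.31 (SE, edgeR adjusted p = 0.00652) in H3C12. H2BC26 had 4.78, 2.96 and 3.84 CPM with the combination, 7.86, 16.04 and 10.1 CPM with gilteritinib, 7.26, 7.10 and 21.9 CPM with MI3454, and 8.55, 13.00 and 6.26 CPM in DMSO. Its combination libraries lay below all libraries of the other 3 groups. MI3454 library 3 was the highest of its group, and without it the log2 change was -0.86 in H2BC26 and -0.78 in H3C12, both still called. The count of called genes rested on single libraries. It was 13 without combination library 3, 17 without combination library 2 and 49 without MI3454 library 2, and DESeq2 called 17.

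With gilteritinib alone, 3 of 56 genes were higher than in DMSO by edgeR, beside 6.92% of all genes higher, so this count lies near the background. At an unadjusted p under 0.05, 27 were higher and 0 lower, and DESeq2 called 7 higher. Both counts are given without a share over all genes, and the 6.92% is not their background. The 3 genes called by edgeR were H1-1, H1-5 and H2AC21, the last at 0.56 ± 0.17 (SE, edgeR adjusted p = 0.0448). H2AC21 was called without DMSO library 2, at 0.75, and not when any of the other 5 libraries was left out, at 0.37 to 0.61. Of the 56 genes 53 had a positive log2 change, with a median of 0.47, beside -0.0006 over all genes. That median was 0.24 without gilteritinib library 2 and 0.27 without DMSO library 3. In 12 genes all gilteritinib libraries lay above all DMSO libraries, a count given without a share over all genes. The summed level was 13672, 20005 and 13153 CPM with gilteritinib and 11644, 14066 and 7552 CPM in DMSO, a ratio of means of 1.41, and gilteritinib libraries 1 and 3 lay between DMSO libraries 1 and 2. Libraries of the same number deviated together in these 2 groups, but the numbers are not known to pair them. A fit with that number as a block called 46 of the 56 genes higher than in DMSO. The block also raised the calls over all genes, given in the closing section, so the 6.92% is not the background of that fit. Without the block the count was 38 when DMSO library 2 was left out and 1 when DMSO library 1, DMSO library 3 or gilteritinib library 2 was. Gilteritinib library 2 was also the highest of its group in RN7SL1, and without the library highest in RN7SL1 in each group it was 37. The H1 genes not called had log2 changes of 0.50 ± 0.16 in H1-2, 0.35 ± 0.12 in H1-3 and 0.50 ± 0.22 in H1-4 (SE), with edgeR adjusted p values of 0.0549, 0.0656 and 0.16. All 3 were called without DMSO library 2, at 0.60 in H1-2, 0.39 in H1-3 and 0.71 in H1-4.

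With MI3454 alone, 1 of 56 genes, H3C6, was lower than in DMSO by edgeR and by DESeq2, beside 8.95% of all genes lower. At an unadjusted p under 0.05, 2 were lower and 0 higher, counts given without a share over all genes. H3C6 changed by -1.08 ± 0.23 (SE, edgeR adjusted p = 0.0057), with MI3454 libraries that did not overlap with those in DMSO. The median over the 56 genes was -0.03, beside 0.0032 over all genes, and its sign rested on single libraries: it was -0.46 without MI3454 library 3, with 9 genes called lower, and 0.22 without MI3454 library 2. The summed level was 9166, 7458 and 16618 CPM with MI3454 and 11644, 14066 and 7552 CPM in DMSO, a ratio of means of 0.999. MI3454 library 3 was the highest of all 6 and MI3454 library 2 the lowest.

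MI3454 was set against gilteritinib as well. Of the 56 genes 5 were lower with MI3454, beside 7.43% of all genes lower, so this count lies near the background. Of these 5, 3 were linker histones. The log2 changes were -1.99 ± 0.25 (SE, edgeR adjusted p = 1.79e-04) in H1-1, -0.64 ± 0.12 (SE, edgeR adjusted p = 0.00313) in H1-3 and -0.64 ± 0.19 (SE, edgeR adjusted p = 0.0353) in H1-2. H1-2 was not called without gilteritinib library 1, at -0.70, gilteritinib library 2, at -0.50, MI3454 library 1, at -0.58, or MI3454 library 2, at -0.48. The other two were H3C6 at -1.17 and H3C1 at -0.80. The count was 50 without MI3454 library 3 and 3 without MI3454 library 1, MI3454 library 2, gilteritinib library 1 or gilteritinib library 2.

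The change with gilteritinib in the presence of MI3454 was compared with its change in the absence of MI3454 by an interaction term fitted to all 12 libraries, the log2 change of the combination over MI3454 minus that of gilteritinib over DMSO. It was negative in all 56 genes, with a median of -1.33, beside -0.02 over all genes, and past the threshold in 30, beside 8.74% of all genes. By type, these were 4 of 5 H1, 6 of 14 H2A, 9 of 15 H2B, 6 of 10 H3 and 5 of 12 H4 genes. The largest among named genes were -2.13 ± 0.55 (SE, edgeR adjusted p = 0.0173) in H3C12 and -1.99 ± 0.45 (SE, edgeR adjusted p = 0.00807) in H1-1. DESeq2 called 18. The count was 11 without combination library 3, 14 without combination library 2 or gilteritinib library 2, 17 without DMSO library 3, 19 without DMSO library 1 and 47 without MI3454 library 2. H3C12 had 63.9, 46.3 and 45.9 CPM with the combination, 153, 344 and 146 CPM with gilteritinib, 102, 80.2 and 233 CPM with MI3454, and 128, 184 and 77.7 CPM in DMSO, and its combination libraries lay below those of the other 3 groups.

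**Figure D5:**
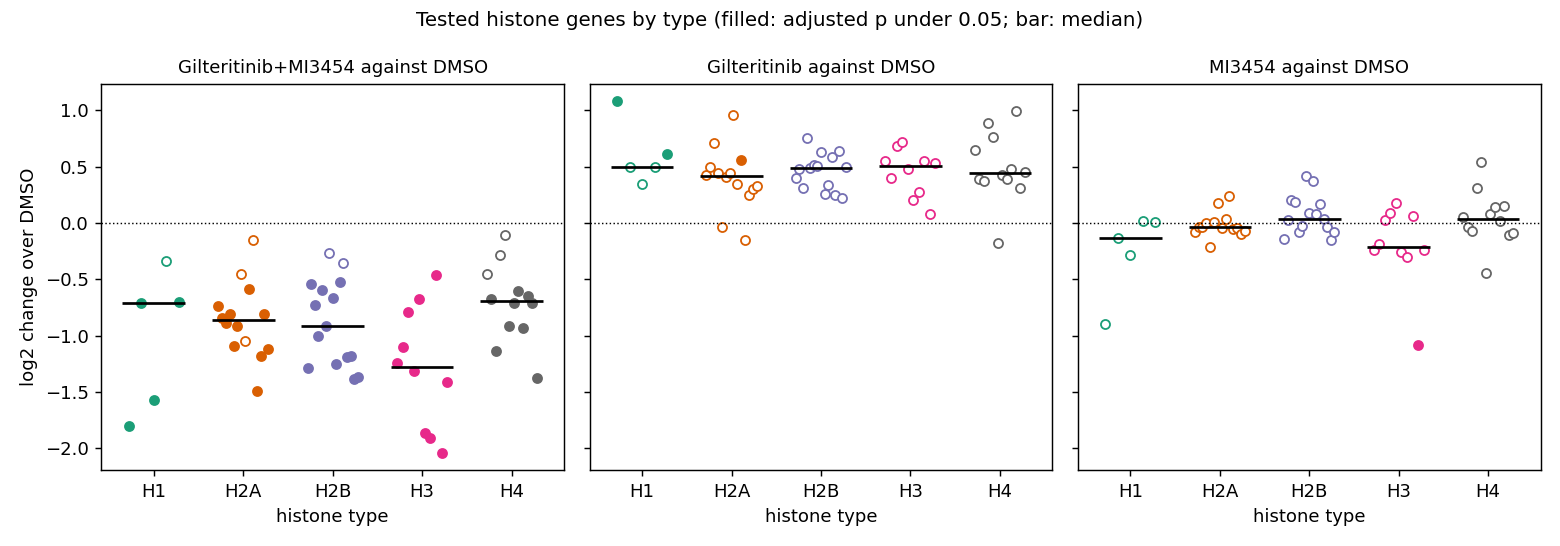
The log2 changes of the tested histone genes by type, with 1 point per gene and bars for the type medians, for the combination, gilteritinib and MI3454, each against DMSO. Medians by CPM run from -1.28 to -0.69 with the combination, a direction that turned round for the histone sum scaled to RN7SL1, from 0.42 to 0.50 with gilteritinib, and from -0.21 to 0.03 with MI3454.

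The machinery that handles these mRNAs was read from lists of related genes, with values given as log2 changes. The comparisons with DMSO share the DMSO libraries. Of 16 factors of histone mRNA transcription, processing and decay, 4 were lower and 1 was higher with the combination than in DMSO, beside 28.4% of all genes lower and 29.2% higher. The lower ones were the cleavage factor CSTF2 at -0.67, SLBP at -0.58, the U7 snRNP component ZNF473 at -0.45 and COIL, the scaffold of Cajal bodies, at -0.31, and the higher one was the uridylyltransferase TUT7 at 0.42. SLBP had 52.6, 48.7 and 48.7 CPM with the combination, 76.5, 83.5 and 75.4 CPM with gilteritinib, 67.7, 62.9 and 68.4 CPM with MI3454, and 79.5, 71.4 and 74.1 CPM in DMSO, with combination libraries below all others. NPAT, the coactivator of histone transcription, changed by -0.11 ± 0.13 (SE, edgeR adjusted p = 0.462), which was not past the threshold. Against DMSO the log2 changes of the 16 ran from -0.14 to 0.22 with gilteritinib and from -0.26 to 0.20 with MI3454. edgeR called 0 of them in either comparison, with 0 at an unadjusted p under 0.05 with gilteritinib and 0 with MI3454. The interaction term was called for 1 of the 16, SLBP, at -0.47 (edgeR adjusted p = 0.016), beside 8.74% of all genes lower.

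Histone chaperones, which carry histones to and from DNA, numbered 19 tested of 20. With the combination 8 were lower than in DMSO, led by the H3 and H4 chaperone ASF1A at -0.93 and CHAF1B, a subunit of chromatin assembly factor 1, at -0.59, beside 28.4% of all genes lower. With gilteritinib 4 were higher, beside 6.92% of all genes, namely ASF1B at 0.61, the H1 and H3 binder NASP at 0.50, CHAF1B at 0.46 and DNAJC9 at 0.36. With MI3454 1 of the 19 was called, ASF1A at -0.65, beside 8.95% of all genes lower.

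Of 30 other genes expressed around S phase, 19 were lower and 0 higher with the combination than in DMSO, beside 28.4% of all genes lower, and the median over the 30 was -0.36. The largest were CDCA7 at -1.06, the helicase subunit MCM6 at -1.002, and the replication licensing factors CDT1 at -0.99 and CDC6 at -0.81. With gilteritinib 15 were higher, beside 6.92% of all genes, and the median over the 30 was 0.32, led by MCM5 at 0.79 and GINS2 at 0.71. With MI3454, 1 was higher and 1, MCM6, was lower, beside 10.1% of all genes higher and 8.95% lower. The interaction term was negative and called in 27 of 30, beside 8.74% of all genes. Of 16 genes of G2 and M phase, 4 were higher and 4 lower with the combination than in DMSO, near the shares of all genes of 29.2% and 28.4%. With gilteritinib 13 of the 16 were higher and with MI3454 4 were, beside 6.92% and 10.1% of all genes. MKI67, a marker of cycling cells, changed by 0.80 with the combination, 0.98 with gilteritinib and 0.63 with MI3454, all called.

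Histone genes that are made outside S phase or replace the replication-dependent proteins numbered 10 tested of 12. With the combination 3 were lower than in DMSO, H2AZ1 at -0.51, MACROH2A1 at -0.49 and H3-3B at -0.40, and 2 were higher, H1-10 at 0.38 and H2AZ2 at 0.31. Over all genes 28.4% were lower and 29.2% higher, so these counts lie near the background. The median over the 10 was -0.01, beside -0.86 over the 56 replication-dependent genes, and that difference was not tested. With gilteritinib 4 were higher, beside 6.92% of all genes, led by the centromeric H3 variant CENPA at 0.79 and H2AX at 0.72.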

How the data were processed

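Total RNA was depleted of ribosomal RNA and made into TruSeq libraries, per the labels' protocols. The deposited files hold whole-number read counts per gene that the authors left unnormalized, in HTSeq's layout, 1 file per library. Per the submitters' processing notes, the tools were HTSeq 0.11.2, STAR 2.7.1a, cutadapt 2.1 and DESeq2, on GRCh38, with no role given for any. No source used here gives the annotation release or strand setting. Reads assigned to no gene, to several genes or to several places were kept out of library sizes and tests, and made up the shares given above. Groups and replicate numbers came from the sample titles, since a treatment label carries a different trailing number in some MI3454 libraries.

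Symbols were joined by Ensembl identifier, which matched 60340 of 60668 rows, and coordinates, exons and coding sequences came from GENCODE 29, which matched 58561. The tests used edgeR 4.0.16 (with limma 3.58.1, under R 4.3.3). filterByExpr over the 4 groups kept 13972 of 30849 genes with counts. Each pair of groups was fitted on its own 6 libraries with TMM scaling, and the interaction on all 12. A gene was called at an adjusted p under 0.05. Levels are CPM with TMM over 12 libraries, whose factors ran from 0.913 to 1.09. Tables and sequences were handled in Python 3.11.15 with pandas 2.3.3 and numpy 2.4.6, and figures drawn with matplotlib 3.10.9. In counts simulated for MI3454 against DMSO over 13972 genes, the fit recovered 47 of 50 genes changed 2-fold and 22 of 50 changed 1.5-fold. A minimum of 5 CPM was set in that simulation, so it does not cover lower genes such as H3C14 and H3C15. The limits given for 0 counts cover counting error alone.

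The histone genes and the other gene lists were chosen with earlier results of these data known. Named genes were the 2 highest of each type, all 5 H1 genes, up to 3 called genes with the largest change per comparison, genes at 0 or below the filter, and genes with a shared protein, with up to 4 called genes per other list. Values of H2BC8, NPAT and the MKI67 and SLBP levels were given for their roles and were chosen after their values were seen. Deviations from the group means of same-numbered gilteritinib and DMSO libraries correlated at 0.142, 0.386 and 0.110 for numbers 1 to 3 across genes. A replicate block was therefore fitted beside that comparison. Gilteritinib library 1 correlated more with DMSO library 3, at 0.212, so the numbers are not known to pair the libraries. Alternatives were DESeq2 1.42.0, library totals in place of TMM, no filter, all libraries in 1 fit, a replicate block, leaving out each library, leaving out the library highest in RN7SL1 of each group and, chosen after seeing the data, counts per RN7SL1 count. Single values of some genes in these lists are not reported here.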

Additional observations from a re-analysis of the deposited data

Results flagged for a closer look

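By CPM, the change with gilteritinib differed with and without MI3454 in 30 of the 56 tested histone genes, beside 8.74% of all genes with a lower term. The call was by the interaction term of edgeR fitted to all 12 libraries, and the count ran from 11 to 47 with 1 library left out. The term is the log2 change of the combination over MI3454 minus that of gilteritinib over DMSO, and it was negative in each gene named here. Among the linker histones it was -1.99 in H1-1, -1.64 in H1-3, -1.33 in H1-5 and -1.08 in H1-2. Among H2A genes it was -1.37 in H2AC8, -1.28 in H2AC25 and -1.09 in H2AC11, and in H2BC26, the divergent partner of H2AC25, it was -1.89. Among H3 genes it was -2.13 in H3C12, -1.31 in H3C10 and -1.07 in H3C2, and in H4C3 it was -1.13. The shares of RN7SL1 and of reads in no gene moved with the combination as well, and their part in these differences was not tested. Histone counts per RN7SL1 count averaged 0.596 with gilteritinib and 0.349 in DMSO, and 0.499 with the combination and 0.370 with MI3454. The interaction was not tested on that scale.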

How the results depend on the processing

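In the alternatives fitted gene by gene, the combination against DMSO called 37 to 53 genes, all lower except without the filter, where 1 gene was called higher; against gilteritinib it called 52 to 56. Scaling to RN7SL1 was applied to the histone sum alone and turned its direction round against DMSO and against MI3454. The other counts of histone genes moved by over 1.5 times. With DESeq2 they were 7 for gilteritinib against DMSO, 17 for the combination against MI3454 and 18 for the interaction. Without a filter they were 3 for MI3454 against DMSO, 36 for gilteritinib against DMSO, 50 for the combination against MI3454, 41 for MI3454 against gilteritinib and 50 for the interaction. Library totals gave 6 for gilteritinib against DMSO, and all 12 libraries in 1 fit gave 2 for MI3454 against DMSO. Without the libraries highest in RN7SL1 they were 3 for MI3454 against DMSO, 37 for gilteritinib against DMSO, 50 for MI3454 against gilteritinib and 49 for the interaction, and calls over all genes were 4250 for gilteritinib against DMSO and 5133 for MI3454 against gilteritinib. Leaving out 1 library gave 1 to 9 for MI3454 against DMSO, 1 to 38 for gilteritinib against DMSO, 13 to 49 for the combination against MI3454, 3 to 50 for MI3454 against gilteritinib and 11 to 47 for the interaction. Calls over all genes then ran from 1243 to 3985 for gilteritinib against DMSO, from 2456 to 5074 for the combination against MI3454 and from 1588 to 4690 for MI3454 against gilteritinib. The cause of these differences was not tested.

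With the replicate block the counts for gilteritinib against DMSO were 46 of histone genes and 4928 of all genes. Same-numbered libraries correlated positively in that comparison, but the numbers are not known to pair them. In the other comparisons same-numbered correlations ran from -0.393 to 0.207, and no pairing beyond the shared number is known. There the block gave 3 histone genes for MI3454 against gilteritinib, 18 for the interaction and 50 for the combination against DMSO, and 1678 of all genes for MI3454 against DMSO. The summed histone ratio of the combination to DMSO was 0.587 by CPM and 1.43 per RN7SL1 count. Per RN7SL1 count the means were 0.499 with the combination and 0.370 with MI3454. Library totals shifted the median of all genes by 0.10 for the combination against DMSO and by 0.13 against gilteritinib. H2AC21, combination over DMSO, ran from -0.35 to 0.027 with 1 library left out, turning positive without DMSO library 2. Of the other single-gene values under alternatives, 647 kept direction and side of the threshold, 53 fell short of it and 19 passed it. The counts per library limit H1-1, H3C14, H3C15 and other genes near 1 CPM.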
